A study of Mus musculus with 12 samples.

Results

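A set of 8 transcription factors of the female germline was followed in mouse oocytes, namely Figla, Nobox, Sohlh1, Lhx8, Taf4b, Pou5f1, Sall4 and Foxo3. They were chosen by name, and all 8 stood among the 24255 genes of the deposited expression table. RNA-seq was done on 12 libraries, each from 20 germinal vesicle (GV)-stage oocytes of C57BL/6 mice at 3 weeks of age, 46 h after 5 IU of PMSG, a gonadotrophin that drives follicle growth. Each of the 4 groups had 3 libraries. Wild-type oocytes (WT) served as the control, and the labels do not say whether WT mice carried a floxed Dpagt1 or a Cre. D166G mutants (MUT) carry an ENU-induced missense mutation of Dpagt1, the enzyme that starts N-glycosylation, in every tissue of the body. In Dpagt1F/F Gdf9CRE/+ mice (GcKO), a Gdf9-driven Cre deletes floxed Dpagt1 in oocytes from the primordial follicle stage on. In Dpagt1F/F Amhr2CRE/+ mice (AmcKO), an Amhr2-driven Cre deletes it in granulosa cells, so the oocytes sequenced were not the target of that deletion. The labels do not say whether the libraries of a group came from separate animals, and the p-values below measure only the spread between these libraries, which may be technical.

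FIGLA and SOHLH1 are basic helix-loop-helix (bHLH) proteins that bind E-boxes as dimers, and NOBOX and LHX8 are homeodomain proteins. Together they switch on the oocyte programme in primordial follicles, including the zona pellucida genes, Gdf9 and Bmp15. TAF4B is a gonadal subunit of the general transcription factor TFIID, POU5F1 (OCT4) and SALL4 are pluripotency factors that are kept in growing oocytes, and FOXO3 holds primordial follicles dormant until KIT and PI3K signalling sends it out of the nucleus.

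Promoter sequences of the bHLH and homeodomain factors are shown here because these genes regulate one another, and that of Zp3, which encodes a zona pellucida protein and is a classical FIGLA target, is shown for comparison. Each runs 5′ to 3′ from 250 bases before to 30 bases after a RefSeq transcription start site (GRCm38.p6), with E-boxes (CANNTG, searched on both strands) in capitals.
Figla, plus strand, chr6:86016941-86017220: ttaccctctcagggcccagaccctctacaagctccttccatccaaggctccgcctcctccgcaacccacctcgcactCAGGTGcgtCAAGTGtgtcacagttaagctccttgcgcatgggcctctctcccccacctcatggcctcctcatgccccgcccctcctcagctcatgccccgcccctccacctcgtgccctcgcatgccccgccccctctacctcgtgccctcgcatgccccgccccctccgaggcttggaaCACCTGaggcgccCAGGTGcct
Sohlh1, minus strand, chr2:25847219-25847498: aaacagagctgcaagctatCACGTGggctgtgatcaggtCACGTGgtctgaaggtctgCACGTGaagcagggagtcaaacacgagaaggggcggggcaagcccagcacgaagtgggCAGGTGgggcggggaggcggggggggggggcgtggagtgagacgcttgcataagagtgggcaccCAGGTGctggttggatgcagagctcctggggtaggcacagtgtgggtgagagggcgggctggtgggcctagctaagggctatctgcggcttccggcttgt
Nobox, minus strand, chr6:43309525-43309804: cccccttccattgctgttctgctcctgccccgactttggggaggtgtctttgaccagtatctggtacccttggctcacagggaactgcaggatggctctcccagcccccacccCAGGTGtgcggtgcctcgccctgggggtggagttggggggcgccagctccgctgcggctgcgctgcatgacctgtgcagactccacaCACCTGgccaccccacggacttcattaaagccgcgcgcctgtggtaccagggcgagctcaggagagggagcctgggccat
Lhx8, minus strand, chr3:154330531-154330810: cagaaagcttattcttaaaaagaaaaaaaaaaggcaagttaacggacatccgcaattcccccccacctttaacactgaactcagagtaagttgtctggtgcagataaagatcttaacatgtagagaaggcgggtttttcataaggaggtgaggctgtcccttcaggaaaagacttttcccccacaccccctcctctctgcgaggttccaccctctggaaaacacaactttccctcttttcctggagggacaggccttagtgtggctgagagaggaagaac
Zp3, plus strand, chr5:135979855-135980134: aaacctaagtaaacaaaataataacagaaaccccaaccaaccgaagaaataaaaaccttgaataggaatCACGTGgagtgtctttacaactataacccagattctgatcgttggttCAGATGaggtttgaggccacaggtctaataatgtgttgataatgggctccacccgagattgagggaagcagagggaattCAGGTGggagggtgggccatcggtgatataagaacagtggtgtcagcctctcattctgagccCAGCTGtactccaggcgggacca
The Figla window lies within the span of the gene in the GENCODE M21 annotation (chr6:86016171-86020996), downstream of its annotated 5′ end. It held 4 E-boxes, of which 3 read CAGGTG on one strand or the other, at bases -173, 9 and 22 relative to the RefSeq start. The Sohlh1 window held 5, of which 3 were the palindrome CACGTG at -231, -211 and -192. Nobox had 2, at -137 and -50, and Zp3 had 4, one of them a CACGTG at -181. No CANNTG stood in the Lhx8 window. Over 32851 RefSeq promoter windows of the same length, 70.1% held a CANNTG, 19.1% a CAGGTG and 6.79% a CACGTG. The homeodomain motif TAATTA, on either strand, was found in none of the 5 windows and in 5.09% of all windows. The related motif TAATTG was likewise found in none of the 5 and in 7.65% of all windows, and TGATTG in none of the 5 and in 13.6%. A match to these letters describes the sequence and says nothing of binding. Promoter sequences were matched for 6 of the 8 factors.

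The libraries differed in scale in a way that touches every level below. Summed over all genes, FPKM (sequenced fragments normalised for transcript length and library depth) came to 1167362 to 1226005 for WT, to 589617 to 611597 for MUT, to 482314 to 684212 for GcKO and to 883256 to 1107925 for AmcKO libraries. An estimated 1106280 to 1944760 fragments stood behind a library. The oocyte identity of the samples was plain, since all 14 oocyte markers were present. The 19 granulosa and cumulus cell markers summed to 13.8 to 28.9 FPKM, 6 of them, among them Foxl2 and Amh, were at 0 in every library, and their part in the results was not tested. Each library held 20 oocytes, but for any other cells in it, fewer cells and less RNA per cell cannot be told apart. Dpagt1 itself could not be used to check the genotypes, because it was listed at 0 in WT and AmcKO, at 0.878, 0.408 and 0.985 FPKM in MUT 1 to 3, and at 0, 0.366 and 0 FPKM in GcKO 1 to 3.

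Sall4, Figla, Nobox and Lhx8 were abundant transcripts, and Taf4b, Pou5f1 and Foxo3 were scarce. In WT, the mean of Sall4 was 201 ± 62.0 FPKM (SD, n = 3), Figla 119 ± 38.2, Nobox 51.4 ± 1.25 and Lhx8 34.8 ± 6.46, which put them above 94.2%, 92.0%, 87.1% and 83.9% of the 11233 genes tested. Foxo3 averaged 1.63 ± 0.662 FPKM, Taf4b 1.5 ± 0.902 and Pou5f1 1.17 ± 1.06, above 39.3%, 37.4% and 32.5% of genes. Sohlh1, whose gene lies on chromosome 2, was listed at 0 in all 12 libraries, as were 9322 genes of the table, and could not be compared. The other 7 factors were tested in 6 contrasts between groups with limma on log2(FPKM + 1), and every fold change below is on that scale, which understates the change of scarce transcripts.

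**Figure D1:**
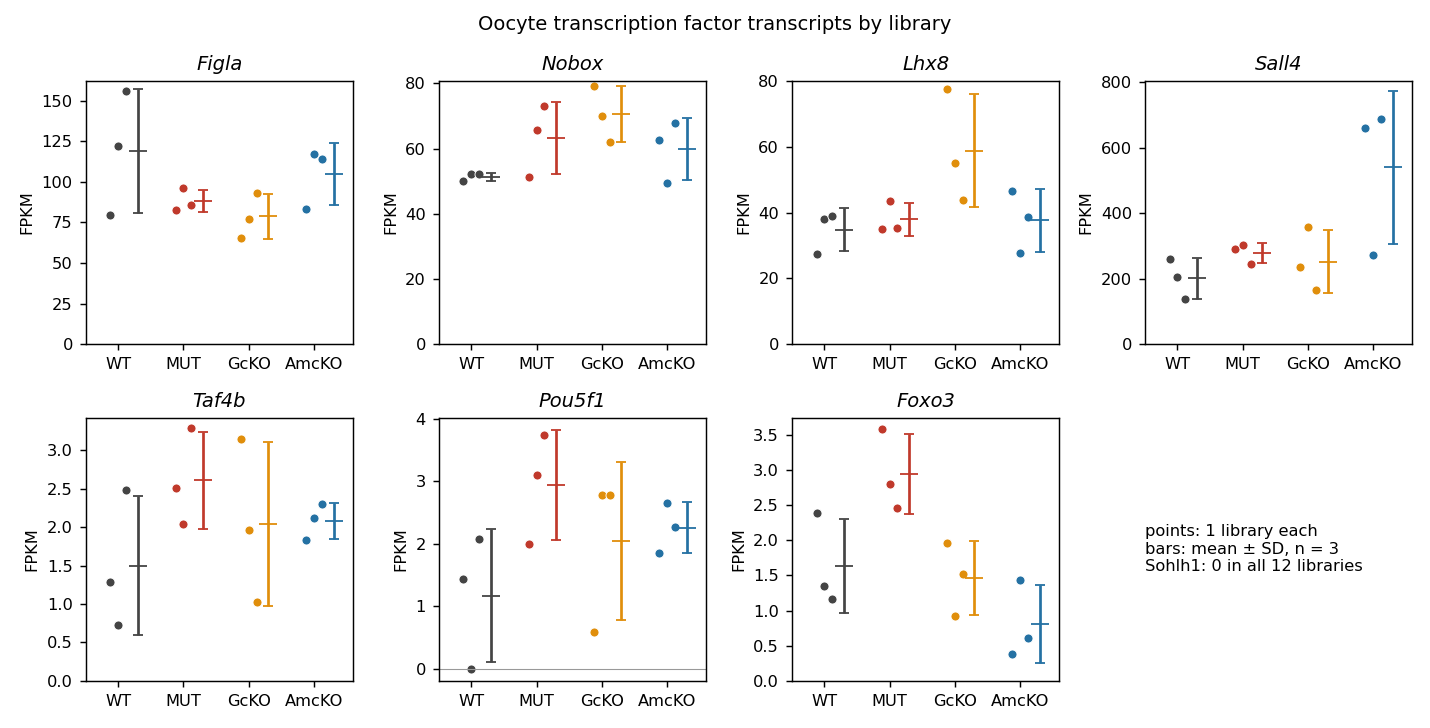
FPKM (y axis) of 7 factors in each of the 12 libraries by group (x axis), 1 point per library, with the group mean and SD (n = 3) beside the points. Sall4 reached 659 and 687 FPKM in AmcKO 4 and 6, and the 3 MUT values of Foxo3 (2.46 to 3.57) all stood above the 3 WT values.

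None of the 7 factors tested passed an adjusted p of 0.05 in any of the 6 contrasts. Against WT, limma called 0 of 7 factors in MUT, where 20.8% of all genes tested were called, and 0 of 7 in GcKO, where 20.2% were. In AmcKO against WT it called 0 of 7, beside 0.214% of all genes. Between the mutant groups it called 0 of 7 in each of GcKO against MUT, MUT against AmcKO and GcKO against AmcKO, where 0.205%, 6.49% and 5.46% of all genes were called. At an unadjusted p under 0.05 stood 1, 3 and 1 of 7 factors in MUT, GcKO and AmcKO against WT, beside 34.1%, 33.7% and 15.6% of all genes. In GcKO against MUT it was 1 of 7 beside 6.60%, in MUT against AmcKO 2 beside 20.6%, and in GcKO against AmcKO 2 beside 19.3%. Their median log2 fold change was 0.51 in MUT and 0.30 in GcKO against WT, where the median gene stood at 0.12 in both, and 0.21 in AmcKO, where it stood at 0.027.

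Ranges of the 3 libraries were fully apart for few factors. This held for 1 of 7 factors in MUT against WT (Foxo3), where it held for 37.1% of all genes, and for 2 in GcKO against WT (Nobox and Lhx8), beside 34.2% of all genes. It held for 1 in AmcKO against WT (Sall4), beside 17.8%, and for 2 in GcKO against MUT (Lhx8 and Foxo3), beside 13.3%. It held for 1 in MUT against AmcKO (Foxo3), beside 28.5%, and for 0 in GcKO against AmcKO, beside 23.6%. Chromosomal positions of these genes, from the GENCODE M21 annotation of GRCm38, are given where each is described.

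**Figure D2:**
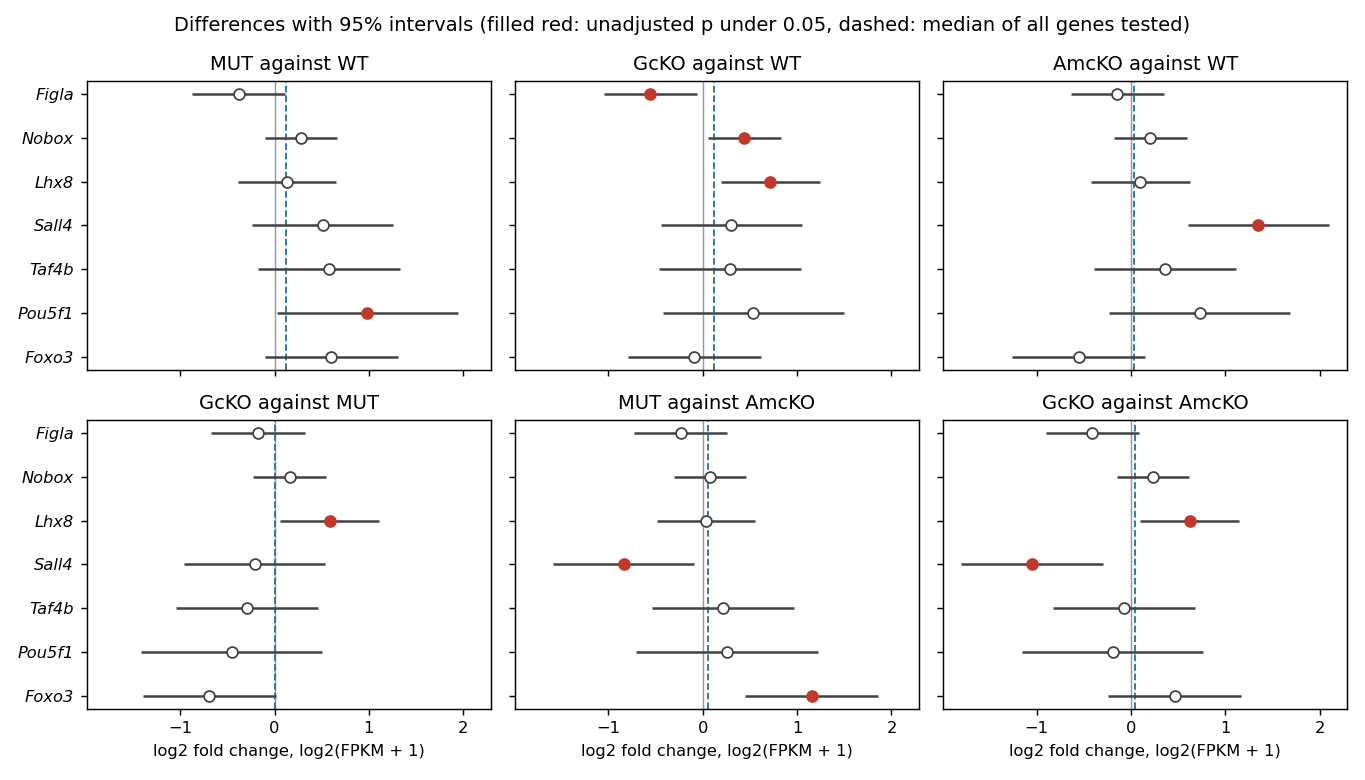
Log2 fold change (x axis, log2(FPKM + 1) scale) of 7 factors (y axis) in each of the 6 contrasts, with 95% intervals from limma. Filled red points have an unadjusted p under 0.05, and none had an adjusted p under 0.05; the dashed line is the median of the 11233 genes tested.

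Figla (chr6:86016171-86020996, plus strand) was the bHLH factor detected. Its FPKM was 79.6, 122 and 156 in WT 4 to 6, 82.9, 95.9 and 85.8 in MUT 1 to 3, 65.5, 77.0 and 93.4 in GcKO 1 to 3, and 83.1, 117 and 114 in AmcKO 4 to 6. WT spanned the widest range of the 4 groups, and its lowest library lay within the range of GcKO and below every MUT and AmcKO library. The group means ran from WT (119) through AmcKO (105) and MUT (88.2) to GcKO (78.6), and the ranges of neighbours in that order overlapped. In GcKO against WT its log2 fold change was -0.56 (95% interval -1.05 to -0.062, limma adjusted p = 0.105), and that in MUT against WT was -0.38 (-0.87 to 0.11, adjusted p = 0.268). Leaving out 1 library gave GcKO values from -0.82 (adjusted p = 0.0222, without WT 4, the low WT library) to -0.34, with adjusted p up to 0.335 and 1 of 6 fits called. With all libraries scaled to the same FPKM sum the values were 0.47 in GcKO and 0.61 in MUT, the latter called (adjusted p = 0.0337), where the median gene stood at 0.73 and 0.70. After quantile normalization they were -0.032 and 0.12, with the median gene at 0.026 and 0.029.

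The bHLH partners of FIGLA and SOHLH1 were mostly scarce. Of the 8 listed, 7 were tested and 1 was called, in GcKO against WT, where 20.2% of all genes were called. This was Id3, an inhibitor that binds bHLH proteins and keeps them off DNA. Id3 was 2.28, 2.58 and 2.2 FPKM in WT and 8.45, 4.43 and 10.3 in GcKO, with no overlap, and rose by 1.32 (SE 0.36, limma adjusted p = 0.0183). Its WT values were in proportion to what 1 sequenced fragment is worth in each library, so their closeness does not measure spread. The call of Id3 was lost in 4 of 6 fits that left out 1 library (adjusted p up to 0.0801, without WT 4, WT 6, GcKO 1 or GcKO 3) and after quantile normalization (1.11, adjusted p = 0.0655). After scaling to the same FPKM sum 3 of the 7 were called higher in MUT and 3 in GcKO, where 4641 and 4769 of all 11233 genes were.

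Nobox (chr6:43303674-43309554, minus strand) had the narrowest spread of the factors. It stood at 49.9, 52.1 and 52.1 FPKM in WT, 51.3, 65.7 and 72.9 in MUT, 79.2, 70.1 and 62.1 in GcKO, and 62.7, 49.4 and 67.7 in AmcKO. All GcKO libraries lay above all WT libraries, whereas MUT 1 and AmcKO 5 fell into or below the WT range. The means ran from GcKO (70.5) through MUT (63.3) and AmcKO (59.9) to WT (51.4), and neighbours overlapped. Against WT its log2 fold change was 0.44 in GcKO (0.059 to 0.83, limma adjusted p = 0.0966), 0.28 in MUT (-0.10 to 0.67, adjusted p = 0.289) and 0.21 in AmcKO (-0.18 to 0.59, adjusted p = 0.592).

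Lhx8 (chr3:154306294-154330659, minus strand) came nearest to a call among the factors in GcKO. Its FPKM was 27.4, 38.2 and 38.9 in WT, 34.9, 43.7 and 35.4 in MUT, 77.6, 55.1 and 43.8 in GcKO, and 46.7, 27.6 and 38.8 in AmcKO. GcKO stood above every WT and MUT library and overlapped AmcKO through GcKO 3 alone. Its mean of 58.8 in GcKO was followed by 38.0 in MUT, 37.7 in AmcKO and 34.8 in WT, and only the step from GcKO to MUT had ranges apart. The log2 fold change was 0.72 in GcKO against WT (0.19 to 1.24, limma adjusted p = 0.0522), 0.59 in GcKO against MUT (0.063 to 1.11, adjusted p = 0.640) and 0.62 in GcKO against AmcKO (0.098 to 1.14, adjusted p = 0.171). Leaving out 1 library gave differences from WT between 0.50 and 0.91, with 1 of 6 fits called (without GcKO 3, adjusted p = 0.0295) and adjusted p up to 0.219 in the others. In MUT and AmcKO against WT the values were 0.13 (-0.39 to 0.65) and 0.097 (-0.43 to 0.62), with adjusted p = 0.748 and 0.891.

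LIM homeodomain proteins such as LHX8 act through LIM-binding cofactors. Of the 13 cofactor and LIM homeobox genes listed, 9 were tested, 3 were called higher and 0 lower in MUT against WT, where 1063 genes were called higher and 1269 lower of all 11233. In GcKO 4 were called higher and 1 lower, beside 978 higher and 1286 lower of all genes. Scaling to the same FPKM sum called 6 of the 9 higher in MUT and 5 in GcKO, and 0 lower. Of all 11233 genes it called 4641 higher and 253 lower in MUT, and 4769 and 241 in GcKO. Ldb1, the scaffold that bridges LIM proteins, was 0, 0 and 0.823 FPKM in WT, 3.13, 4.72 and 3.07 in MUT and 6.62, 5.87 and 2.17 in GcKO. It rose by 1.91 (SE 0.38, limma adjusted p = 0.00343) in MUT and by 2.17 (SE 0.38, adjusted p = 0.00148) in GcKO. No WT library of Ldb1 reached 1 FPKM, so it was tested only through the groups where it was higher. Its calls are therefore those of a gene that the filter chose. Ssbp3, which stabilises LDB1, went from 0.949 ± 0.359 FPKM in WT to 5.09 ± 0.714 in MUT (log2 fold change 1.65, adjusted p = 0.00166) and 4.06 ± 1.46 in GcKO (1.35, adjusted p = 0.00577). In AmcKO, which was not called, Ldb1 was 2.72, 2.05 and 3.52 FPKM, above every WT library (log2 fold change 1.60, adjusted p = 0.0996), and Ssbp3 stood at 0.96 (adjusted p = 0.167). These 4 calls in MUT and GcKO held in every fit that left out 1 library, and under each of 3 other scalings (by median of ratios, to the same FPKM sum and by quantile normalization). For Ldb1 this does not undo the choice made by the filter. Rlim, a ubiquitin ligase for LIM cofactors, rose in MUT (1.05, adjusted p = 0.00658) and GcKO (0.85, adjusted p = 0.0203), the latter not without WT 6 or GcKO 1 (adjusted p up to 0.0705) nor after quantile normalization (0.74, adjusted p = 0.0549).

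LIM genes were called 2 more times in GcKO. Lhx2, a homeobox relative of Lhx8, rose by 1.14 (adjusted p = 0.0202, but 0.0732 without GcKO 1 and 0.0972 after quantile normalization) from 0.822 ± 0.0682 FPKM in WT, and its value in AmcKO was 1.15 (adjusted p = 0.136). All WT values lay below 1 FPKM, so Lhx2 was tested only through the groups where it was higher. Those WT values were in proportion to what 1 sequenced fragment is worth in each library, so their SD does not measure spread. Lmo1, a LIM-only protein gene and the most abundant of the list, fell by 0.53 (limma adjusted p = 0.0168, and 0.0508 without WT 4), from 673 ± 62.2 FPKM in WT to 467 ± 61.8 in GcKO, but it was called in the other direction after scaling to the same FPKM sum (0.51, adjusted p = 0.00103) and after quantile normalization (0.39, adjusted p = 0.0158). Limma called 0 of the 9 in AmcKO against WT, GcKO against MUT, MUT against AmcKO and GcKO against AmcKO, beside 0.214%, 0.205%, 6.49% and 5.46% of all genes. In these contrasts 4, 0, 2 and 2 of the 9 had an unadjusted p under 0.05, beside 15.6%, 6.60%, 20.6% and 19.3% of all genes. The median of the 9, which include Ldb1 and Lhx2, was 0.68 in MUT and 0.51 in GcKO against WT, beside 0.12 for all genes. Among genes with a mean FPKM of at least 5, 3 of the list were tested. Their medians were -0.31 in MUT and -0.53 in GcKO, beside -0.12 and -0.16 for all 4759 such genes. In each, 1 of the 3 was called higher and 1 lower. Of all 4759 such genes, 760 were called higher and 1362 lower in MUT, and 705 and 1397 in GcKO.

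Taf4b (chr18:14783245-14900359, plus strand) was measured on few molecules. Its FPKM was 1.28, 0.724 and 2.49 in WT, 2.50, 2.03 and 3.29 in MUT, 3.15, 1.96 and 1.02 in GcKO, and 1.83, 2.11 and 2.30 in AmcKO. Every MUT library except MUT 2 lay above the WT range, GcKO overlapped WT widely, and AmcKO lay wholly within the WT range. The means were 2.61 in MUT, 2.08 in AmcKO, 2.04 in GcKO and 1.5 in WT, with overlap at each step. Against WT its log2 fold change was 0.58 in MUT (-0.17 to 1.33), 0.29 in GcKO (-0.47 to 1.04) and 0.36 in AmcKO (-0.39 to 1.11), with limma adjusted p = 0.269, 0.601 and 0.636.

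Of the other TFIID and TFIIA subunits, 21 were tested, of which 3 were called higher and 7 lower in MUT against WT and 2 higher and 7 lower in GcKO, with medians of -0.25 and -0.35, where 20.8% and 20.2% of all genes were called. The balance turned to 9 higher and 1 lower in MUT and 8 higher and 1 lower in GcKO after scaling to the same FPKM sum (medians 0.65 and 0.48, beside 0.70 and 0.73 for all genes). Of all 11233 genes, 4641 were then called higher and 253 lower in MUT, and 4769 and 241 in GcKO. After quantile normalization the balance was 2 higher and 3 lower in MUT, beside 753 and 720 of all 11233 genes. In GcKO it was 2 higher and 2 lower, beside 691 and 665 of all genes. The medians were then 0.046 and -0.089, beside 0.029 and 0.026 for all genes. Taf9, a histone-fold subunit, was the most abundant of the list at 3447 ± 149 FPKM in WT, and measured 1153 ± 27.3 in MUT and 1051 ± 350 in GcKO. It fell by 1.58 in MUT (SE 0.22, limma adjusted p = 0.000343) and by 1.77 in GcKO (SE 0.22, adjusted p = 0.000177), and it remained lower, with a call, after scaling to the same FPKM sum (-0.58 and -0.73) and after quantile normalization (-0.44 and -0.68). Its paralogue Taf9b fell from 428 ± 68.1 FPKM in WT to 180 ± 14.4 in MUT and 174 ± 55.1 in GcKO, by 1.24 and 1.33 (adjusted p = 0.00111 and 0.000669), with the same sign but no call after scaling to the same FPKM sum (-0.25 and -0.30). These calls of both genes against WT held without any 1 library.

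Taf4a, the close relative of Taf4b found in most tissues, moved the other way. It stood at 1.88, 4.25 and 1.83 FPKM in WT, 7.95, 7.17 and 8.31 in MUT and 11.3, 5.33 and 8.63 in GcKO, with both mutant groups above WT. It rose by 1.33 in MUT (limma adjusted p = 0.0148) and 1.38 in GcKO (adjusted p = 0.0122), calls that were lost in 4 and 3 of 6 fits without 1 library (adjusted p up to 0.0630 and 0.0705; WT 4, WT 6 or MUT 1 or 3, and WT 4, WT 6 or GcKO 1). Taf3 rose by 1.04 in MUT (adjusted p = 0.0119) and 0.88 in GcKO (adjusted p = 0.0284), each lost in 3 of 6 such fits (adjusted p up to 0.0578 and 0.125; WT 6 or MUT 2 or 3, and WT 6 or GcKO 1 or 2).

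Tbpl2, the oocyte relative of the TATA-binding protein, fell by 1.22 in MUT (limma adjusted p = 0.0192, and up to 0.0747 without WT 6, MUT 2 or MUT 3), from 7.94 ± 3.90 to 2.65 ± 0.694 FPKM, and stood at -0.42 (adjusted p = 0.326) after scaling to the same FPKM sum. In GcKO its log2 fold change was -0.76 (adjusted p = 0.124). Gtf2a2, a TFIIA subunit, fell by 0.79 in MUT (adjusted p = 0.0174, and up to 0.0890 without WT 6, MUT 2 or MUT 3). It fell by 0.93 in GcKO (adjusted p = 0.00671), but its log2 fold changes were 0.21 and 0.10 after scaling to the same FPKM sum. Against AmcKO, 3 TFIID and TFIIA genes were called lower in MUT and 4 in GcKO, with 0 called higher, beside 6.49% and 5.46% of all genes. Each of these 7 calls was lost in at least 1 of 6 fits that left out a library, and the one that kept a call after scaling to the same FPKM sum was Taf9 in GcKO, lost without AmcKO 5 (adjusted p = 0.0559). In AmcKO against WT and in GcKO against MUT limma called 0 of 21, with 5 and 1 at an unadjusted p under 0.05, where all genes had 0.214% and 0.205% called and 15.6% and 6.60% at that p.

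Pou5f1 (chr17:35506018-35510772, plus strand) was the scarcest factor detected in WT. It was 1.44, 0 and 2.08 FPKM in WT, 1.99, 3.10 and 3.74 in MUT, 0.591, 2.78 and 2.79 in GcKO, and 1.85, 2.66 and 2.28 in AmcKO. WT 5 was listed at 0, and MUT 1 fell within the WT range, so that no pair of groups was fully apart. The means were 2.95 in MUT, 2.26 in AmcKO, 2.05 in GcKO and 1.17 in WT. The log2 fold change against WT was 0.98 in MUT (0.025 to 1.94, limma adjusted p = 0.136), 0.53 in GcKO (-0.43 to 1.49, adjusted p = 0.429) and 0.73 in AmcKO (-0.23 to 1.69, adjusted p = 0.450).

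Sall4 (chr2:168748332-168767943, minus strand) had its high values in AmcKO. Its FPKM was 261, 206 and 137 in WT, 290, 301 and 245 in MUT, 234, 357 and 165 in GcKO, and 659, 272 and 687 in AmcKO. AmcKO 4 and 6 were higher than any library of the other groups, whereas AmcKO 5 lay among the MUT and GcKO libraries and just above WT 4. The means ran from AmcKO (539) through MUT (279) and GcKO (252) to WT (201), with overlap at each step. The log2 fold change of AmcKO against WT was 1.35 (0.60 to 2.10, limma adjusted p = 0.120). Leaving out 1 library gave 1.1 to 1.79, with 1 of 6 fits called (without AmcKO 5, adjusted p = 0.0404) and adjusted p up to 0.389. Against AmcKO, the values were -0.84 in MUT (-1.59 to -0.090, adjusted p = 0.186) and -1.05 in GcKO (-1.80 to -0.30, adjusted p = 0.104). The latter ran from -1.48 (without AmcKO 5, adjusted p = 0.0369) to -0.78 when 1 library was left out, with adjusted p up to 0.337. Against WT they were 0.51 in MUT (-0.24 to 1.26, adjusted p = 0.324) and 0.30 in GcKO (-0.45 to 1.05, adjusted p = 0.577).

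Other pluripotency factors were scarce, with a mean of at most 3.94 FPKM (Tfap2c) in WT. Of 17 listed, 10 were tested and 4, including Nanog, were listed at 0 in every library. Limma called 0 of 10 in each contrast against WT, beside 20.8%, 20.2% and 0.214% of all genes in MUT, GcKO and AmcKO. An unadjusted p under 0.05 was reached by 0, 1 and 0 of the 10, beside 34.1%, 33.7% and 15.6% of all genes. The medians of the 10 were 0.27, 0.42 and 0.057. Scaling to the same FPKM sum called 3 and 5 of the 10 higher in MUT and GcKO, beside 4641 and 4769 of all 11233 genes.

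Foxo3 (chr10:42181841-42276755, minus strand) had its highest mean in MUT and its lowest in AmcKO. Its FPKM was 2.39, 1.35 and 1.16 in WT, 3.57, 2.80 and 2.46 in MUT, 1.96, 0.916 and 1.53 in GcKO, and 0.381, 1.44 and 0.616 in AmcKO. All MUT libraries lay above all libraries of the other 3 groups, and WT, GcKO and AmcKO overlapped. The means were 2.94 in MUT, 1.63 in WT, 1.47 in GcKO and 0.812 in AmcKO. The log2 fold change of MUT against AmcKO was 1.15 (0.45 to 1.86, limma adjusted p = 0.0519). Leaving out 1 library gave 0.98 to 1.39, with 1 of 6 fits called (without AmcKO 5, adjusted p = 0.0461) and adjusted p up to 0.151. It was 0.60 in MUT against WT (-0.10 to 1.31, adjusted p = 0.217), -0.69 in GcKO against MUT (-1.39 to 0.016, adjusted p = 0.771), -0.088 in GcKO against WT (-0.79 to 0.62, adjusted p = 0.895) and -0.55 in AmcKO against WT (-1.26 to 0.15, adjusted p = 0.436).

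The depth behind the 3 scarce factors was estimated from the steps in FPKM. In each library the values of low transcripts came in multiples of what 1 sequenced fragment is worth, and 1 fragment weighed more in WT (1566 to 1825 FPKM times nucleotides) than in MUT (689 to 829), GcKO (618 to 1032) or AmcKO (835 to 1030). Taking for each factor the transcript length that gives the smallest whole numbers, Foxo3 rested on an estimated 4, 2 and 2 fragments in WT, 13, 11 and 8 in MUT, 8, 4 and 4 in GcKO and 1, 4 and 2 in AmcKO. Taf4b rested on 4, 2 and 8 fragments in WT, 17, 15 and 20 in MUT, 24, 16 and 5 in GcKO and 9, 11 and 14 in AmcKO. That length was fitted to the values, and any multiple of these numbers would fit too. With the longest annotated transcript of Foxo3 (6848 nt against a fitted 2902 nt) its estimates were 9.86, 4.92 and 4.92 in WT and 32.0, 27.0 and 19.7 in MUT. For Taf4b that transcript gave 1.96 to 23.6 fragments over the 12 libraries, beside 2 to 24. Pou5f1 rested on 1, 0 and 1.47 fragments in WT, 3, 5 and 5 in MUT, 1, 5 and 3 in GcKO, and 2, 3 and 3 in AmcKO.

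**Figure D3:**
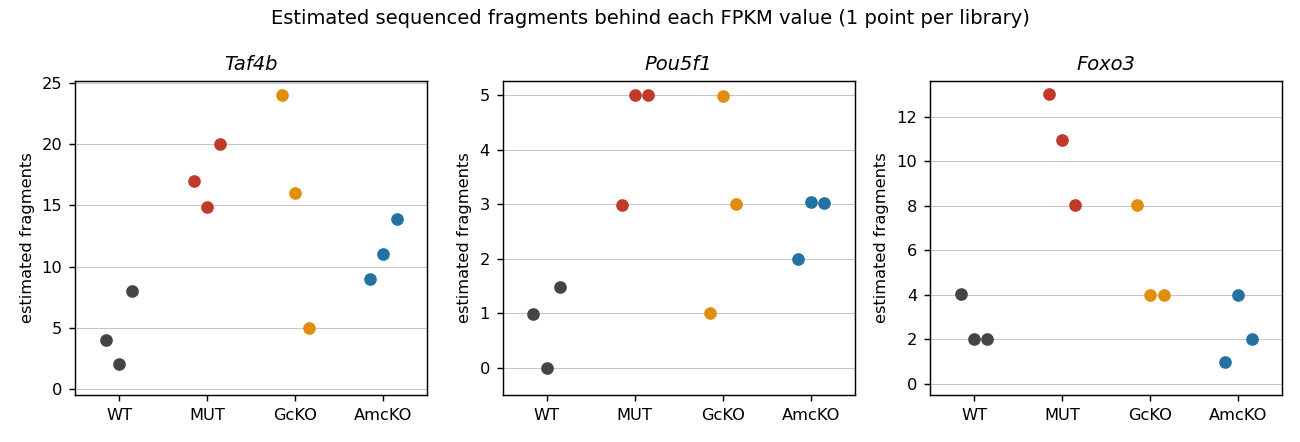
Estimated number of sequenced fragments (y axis, with the transcript length fitted to give the smallest whole numbers) behind the FPKM of Taf4b, Pou5f1 and Foxo3 in each library by group (x axis), 1 point per library. WT values reached at most 8, 1.47 and 4 fragments, and MUT values at most 20, 5 and 13.

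The list of KIT, PI3K and FOXO pathway genes holds regulators of FOXO3, other FOXO genes and genes downstream of the pathway such as Rps6. Of its 23 members 18 were tested. Against WT, 5 were called higher and 2 lower in MUT and 4 higher and 2 lower in GcKO, beside 20.8% and 20.2% of all genes called. After quantile normalization 2 were called higher and 1 lower in MUT, beside 753 and 720 of all 11233 genes. In GcKO 1 was then called higher and 0 lower, beside 691 and 665 of all genes. Foxo1, a more abundant relative of Foxo3, was 8.30, 9.05 and 11.5 FPKM in WT, 29.0, 22.7 and 26.8 in MUT, 33.4, 18.6 and 17.6 in GcKO and 16.4, 10.8 and 18.1 in AmcKO. Both MUT and GcKO lay above WT without overlap. Foxo1 rose by 1.36 in MUT (SE 0.27, limma adjusted p = 0.00285) and by 1.14 in GcKO (SE 0.27, adjusted p = 0.00820), and stayed called in every fit without 1 library and under each of the 3 other scalings. Pik3ca, the catalytic subunit of PI3K, rose from 1.25 ± 0.189 FPKM in WT to 4.28 ± 0.722 in MUT (1.22, adjusted p = 0.00546) and 3.79 ± 0.530 in GcKO (1.09, adjusted p = 0.0109), the latter at adjusted p = 0.0587 after quantile normalization.

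Akt1, a kinase that phosphorylates FOXO proteins, rose by 1.06 in MUT (limma adjusted p = 0.04) and by 1.25 in GcKO (adjusted p = 0.0181). The first call was lost without WT 4, WT 6 or any MUT library (adjusted p up to 0.133), and the second without WT 4, WT 6, GcKO 1 or GcKO 2 (up to 0.0757). After quantile normalization neither was called (adjusted p = 0.142 and 0.0737). In AmcKO, Akt1 stood at 1.05 (adjusted p = 0.178), with a mean of 2.98 FPKM beside 2.99 in MUT. Rps6, a ribosomal protein gene downstream of the pathway, fell by 1.22 in MUT (adjusted p = 0.00569) and by 0.83 in GcKO (adjusted p = 0.0417), the latter lost without any library but GcKO 3 (adjusted p up to 0.167). After scaling to the same FPKM sum neither was called, at -0.24 in MUT (adjusted p = 0.387) and 0.19 in GcKO. The median of the 18 genes was 0.40 in MUT and 0.61 in GcKO, beside 0.12 for all genes in both. It was 0.99 and 1.21 after scaling to the same FPKM sum (all genes 0.70 and 0.73), 0.20 and 0.39 after quantile normalization (0.029 and 0.026), and 0.092 and 0.30 with the length correction (0.036 and 0.039). Scaling to the same FPKM sum called 10 and 13 of the 18 higher and 0 lower, and 4641 and 4769 of all 11233 genes higher. Limma called 0 of 18 in AmcKO against WT, with 6 at an unadjusted p under 0.05, beside 0.214% of all genes called and 15.6% at that p.

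Target genes of FIGLA, NOBOX, SOHLH1 and LHX8 were highly expressed, and all 15 were tested. In MUT against WT 1 was called higher and 6 lower, and in GcKO 1 higher and 4 lower, with medians of -0.48 and -0.25, where 20.8% and 20.2% of all genes were called. Among genes with a mean FPKM of at least 5, which all 15 had, calls were more common. There, 1 target was called higher and 7 lower in MUT, and 2 higher and 4 lower in GcKO. Of all 4759 such genes, 760 were called higher and 1362 lower in MUT, and 705 and 1397 in GcKO. Rfpl4, an oocyte RING-finger gene, was 12792 ± 513 FPKM in WT, 4907 ± 95.1 in MUT and 4381 ± 1218 in GcKO, and fell by 1.38 (SE 0.20, limma adjusted p = 0.000387) and 1.59 (SE 0.20, adjusted p = 0.000176). Its log2 fold change against AmcKO (8276 ± 1432 FPKM) was -0.74 in MUT (adjusted p = 0.0406) and -0.95 in GcKO (adjusted p = 0.0139). The first was lost without any library but AmcKO 6 (adjusted p up to 0.169) and the second without AmcKO 4 or 5 (up to 0.0762). Neither was called after scaling to the same FPKM sum (-0.040 and -0.20) or after quantile normalization (0.17 and 0.035). H1foo, the oocyte linker histone, fell from 9196 ± 353 FPKM in WT to 4943 ± 319 in MUT (-0.90, adjusted p = 0.000870) and 4541 ± 647 in GcKO (-1.03, adjusted p = 0.000353), and stood at 0.10 and 0.012 after scaling to the same FPKM sum. The AmcKO mean of H1foo was 8560 ± 515 FPKM.

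Among the zona genes, Zp2 fell by 1.09 in MUT (limma adjusted p = 0.00215) and by 0.74 in GcKO (adjusted p = 0.0195), the latter not without WT 4, WT 6 or GcKO 1 (adjusted p up to 0.0733), and its values were -0.10 and 0.29 after scaling to the same FPKM sum. Zp3 fell by 0.52 in MUT against WT (adjusted p = 0.0489), a call lost without any 1 of the 6 libraries (adjusted p up to 0.176) and at 0.48 after scaling to the same FPKM sum. Against AmcKO its value in MUT was -0.92 (adjusted p = 0.00711), with no call after scaling to the same FPKM sum (-0.22, adjusted p = 0.431) or quantile normalization (-0.29, adjusted p = 0.492). Oosp1, an oocyte-secreted protein gene, fell by 0.88 in MUT and 0.98 in GcKO (adjusted p = 0.00408 and 0.00207), with 0.11 and 0.057 after scaling to the same FPKM sum. Zar1, a maternal-effect gene, was the target called higher, at 0.72 in MUT (adjusted p = 0.0227) and 0.70 in GcKO (adjusted p = 0.0267), lost in MUT without WT 4, WT 5, MUT 2 or MUT 3 (adjusted p up to 0.102) and in GcKO without WT 4, WT 5 or GcKO 2 (up to 0.118).

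The direction of the target list depended on the scaling. After scaling to the same FPKM sum 7 targets were called higher and 1 lower in MUT, and 10 higher and 1 lower in GcKO. Of all 11233 genes, 4641 were then called higher and 253 lower in MUT, and 4769 and 241 in GcKO. The median of the list was 0.50 in MUT and 0.78 in GcKO, beside 0.70 and 0.73 for all genes. After quantile normalization it was 0.39 and 0.61, beside 0.029 and 0.026, with 5 called higher and 1 lower and with 7 higher and 0 lower. Of all 11233 genes, that setting called 753 higher and 720 lower in MUT, and 691 and 665 in GcKO. Under quantile normalization the log2 fold changes in MUT were 0.37 for H1foo, 0.40 for Oosp1 and 0.39 for Zp3, -0.12 for Rfpl4 and -0.55 for Zp2, whereas Zar1 was above 0 under all 4 scalings (0.71 to 1.71). In AmcKO against WT limma called 0 of the 15, with 3 at an unadjusted p under 0.05 (0.214% and 15.6% of all genes).

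**Figure D4:**
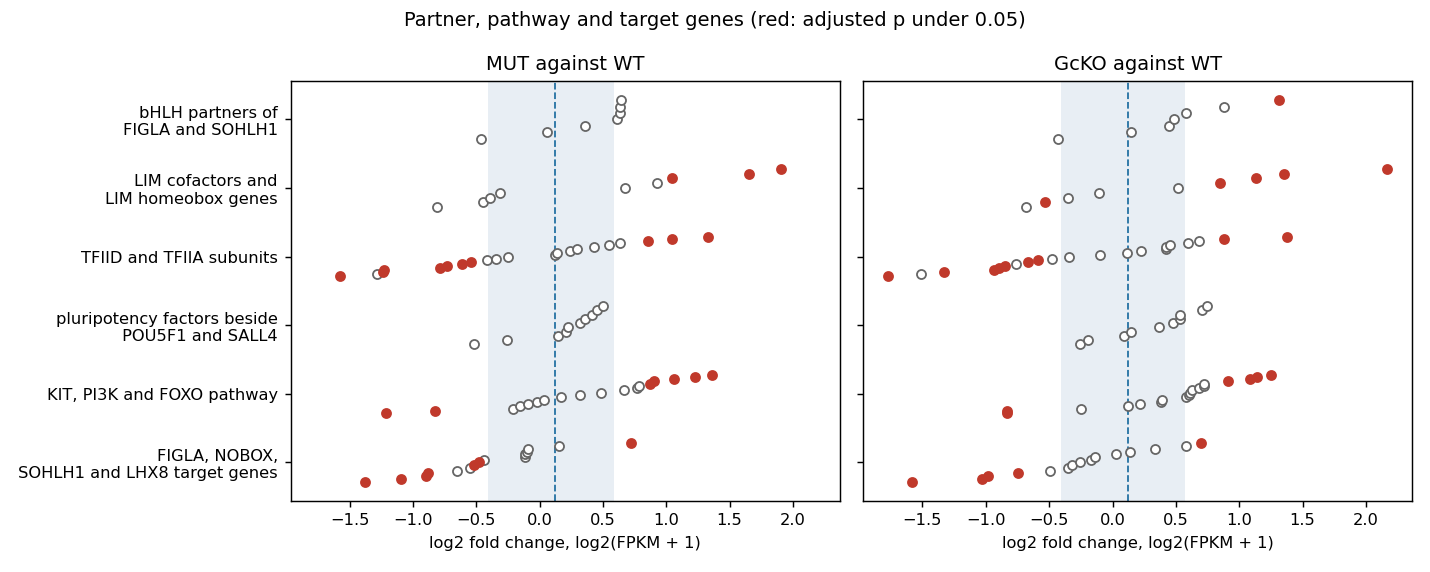
Log2 fold change against WT (x axis, log2(FPKM + 1) scale) of the tested genes of 6 lists (y axis), 1 point per gene, in MUT (left) and GcKO (right). Red points have an adjusted p under 0.05, the band spans the quartiles of the 11233 genes tested and the dashed line is their median (0.12); the target list lies mostly to the left of it on the deposited scale, and to the right after quantile normalization.

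Scaling also set how the factors read against WT. With every library scaled to the same FPKM sum, the median gene moved from 0.12 to 0.70 in MUT and to 0.73 in GcKO, and 7 and 3 of the 7 factors were called higher, beside 4641 and 4769 of all 11233 genes. Relative to the median gene, that scaling put Sall4 at 0.80, Pou5f1 at 0.84, Nobox at 0.56, Foxo3 at 0.54, Taf4b at 0.49, Lhx8 at 0.40 and Figla at -0.095 in MUT. In GcKO it put Lhx8 at 1.00, Nobox at 0.73, Sall4 at 0.61, Pou5f1 at 0.31 and Taf4b at 0.19, with Figla at -0.26 and Foxo3 at -0.20. Quantile normalization called 0 factors in MUT and 2 in GcKO, Lhx8 at 1.04 (limma adjusted p = 0.0251) and Nobox at 0.86 (adjusted p = 0.0166). Of all 11233 genes it called 1473 in MUT and 1356 in GcKO. Lhx8, Nobox, Sall4 and Pou5f1 were thus above the median gene in GcKO under all 4 scalings shown, and Figla and Foxo3 below it. With a correction for transcript length, however, Sall4 stood at -0.016 relative to that gene.

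**Figure D5:**
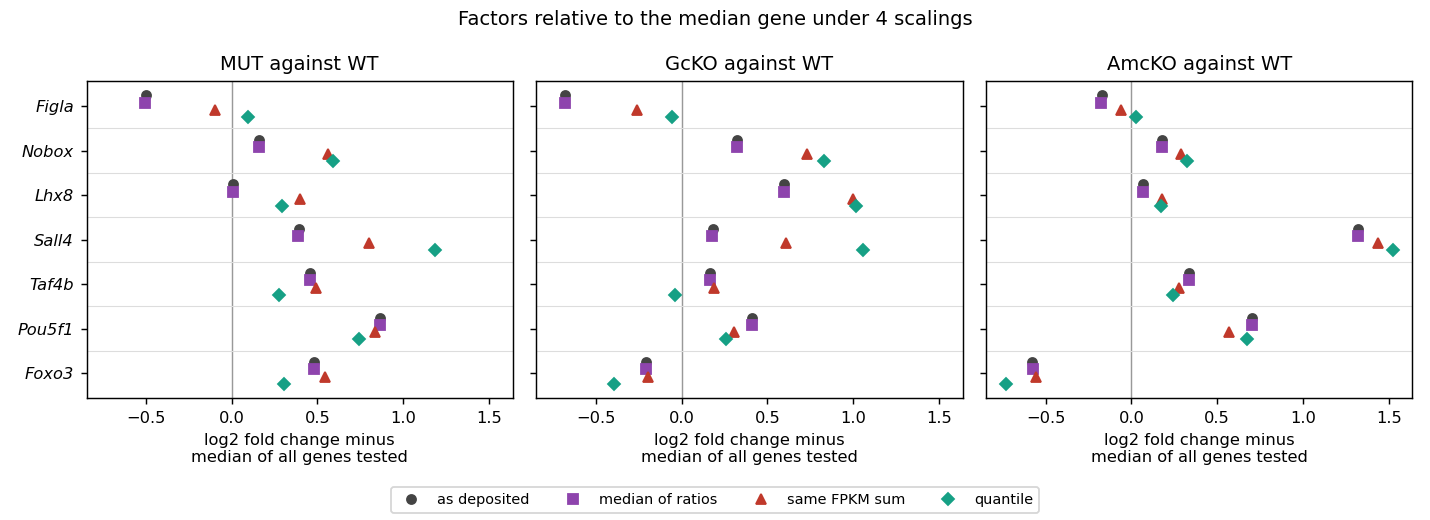
Log2 fold change minus the median of all genes tested (x axis) for 7 factors (y axis) in MUT, GcKO and AmcKO against WT, with FPKM as deposited and after 3 other scalings. Sall4 in AmcKO stood between 1.32 and 1.52 under all 4, and Figla in MUT between -0.51 and 0.094.

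The genes whose levels followed each factor most closely over the 12 libraries were found by the root mean square (RMS) difference of mean-centred log2(FPKM + 1) values among 4755 genes with a mean FPKM of at least 5. This is a description of 12 libraries that share groups and scale. For Lhx8 the nearest was Kit, the receptor tyrosine kinase of oocytes and one of the listed targets, at an RMS difference of 0.20 beside a median of 0.60 over all those genes, followed by Bptf at 0.21. Kit had a mean FPKM of 16.1 for WT, 15 for MUT, 24.8 for GcKO and 18.9 for AmcKO. Sall4 was nearest to Kmt2d, a histone methyltransferase gene, and to Nav2, at 0.17 and 0.20 beside a median of 0.80, and Kmt2d averaged 4.47 FPKM in WT and 10.9 in AmcKO. Figla lay nearest to Tsn and Dcbld1 (0.16 each), Nobox to G3bp2 and Eif4e3 (0.13 and 0.14) and Taf4b to Cep57l1 and Phtf2 (0.16 each). The nearest genes of Foxo3, Zfp449 and Ddb2, were further off at 0.29 and 0.32, as were those of Pou5f1, Mrps6 and Yeats4, at 0.36 each.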

How the data were processed

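Per the labels and the study's methods, RNA of 20 GV-stage oocytes per library was amplified by Smart-seq2 and sequenced as 150 nt paired reads, which the authors aligned to mm10 with TopHat2 2.0.13. The authors deposited FPKM values from Cufflinks 2.2.1, 1 column per library, for 24255 genes. The gene annotation and the treatment of strand are not given in the sources used here. The same table holds results of the authors' own tests for 6 comparisons (log2 ratios, with p-values and q-values as deposited), which were not used. The 8 factors and the gene lists were chosen with earlier results of these data known.

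Genes that reached 1 FPKM in any library (11233) were tested on the log2(FPKM + 1) scale with limma 3.58.1 (R 4.3.3), letting the variance depend on abundance. A single model of the 12 libraries and 4 groups left 8 residual degrees of freedom and gave 6 contrasts, those against WT sharing its libraries. Calls were made where the p-value, adjusted by Benjamini and Hochberg over all these genes, was below 0.05. The fit was tested on simulated data. Groups came from the labels, and the replicate numbers (4 to 6 in WT and AmcKO, 1 to 3 in MUT and GcKO) were taken as names. No library was left out.

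Fragments were estimated from the FPKM times transcript length less 200 nt, since 83.3 to 89.0% of low values of single-transcript genes over 1500 nt lay within 10% of whole multiples of 1 step per library. For Taf4b, Pou5f1 and Foxo3 the transcript length was fitted so that all values, or all but 1, lay within 4% of whole numbers (5247, 1310 and 2902 nt). PCR copies are not told apart, so such numbers are estimates. Named beside the 8 factors were Dpagt1, for each list up to 6 genes called in a contrast with WT or AmcKO with the largest fold changes, and for each tested factor the 2 genes of nearest profile. Nanog, Tfap2c, Foxl2, Amh and Cyp19a1 were named outside this rule, after their values were seen. Some genes that the rule names are not reported here.

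Alternatives were a pseudocount of 0.1, no filter, a filter at a mean of 5 FPKM, scaling by median of ratios, scaling to the same FPKM sum, quantile normalization, no variance trend, only the 2 groups compared, a loess correction for transcript length, calls limited to changes above 2-fold or to adjusted p below 0.01, a replicate block and leaving out each replicate. Counts of calls after quantile normalization are given without the share of all genes called at that setting. They are therefore not read as results about the factors or a list.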

Additional observations from a re-analysis of the deposited data

How the results depend on the processing

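With 0 factors called in each contrast at first, other settings called some. In MUT against WT, scaling to the same FPKM sum called 7, beside 4894 of all 11233 genes. In GcKO against WT, a mean FPKM of at least 5 called 1 (Lhx8), beside 2102 of 4759 genes, and the same FPKM sum 3, beside 5010 of 11233. Quantile normalization called 2, beside 1356 of 11233 genes, and the length correction 1, beside 1953 of 11123. Leaving out 1 replicate gave 0 to 1, beside 1350 to 2273 of 11233 genes. In AmcKO against WT, leaving out 1 replicate gave 0 to 1, beside 14 to 84 of 11233 genes. In MUT against AmcKO, the same FPKM sum called 2, beside 2566 of 11233 genes, and the fit without variance trend 1 (Foxo3), beside 386. In GcKO against AmcKO the mean FPKM of at least 5 called 1 (Sall4), beside 893 of 4759 genes, and the same FPKM sum 2, beside 2606 of 11233. When 1 replicate was left out, both contrasts had 0 to 1. Of 11233 genes, 296 to 657 were then called in MUT against AmcKO and 252 to 752 in GcKO against AmcKO. GcKO against MUT had 0 under every setting, where 6 to 75 of all genes tested were called. The mean FPKM of at least 5 left Taf4b, Pou5f1 and Foxo3 without a value.

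Log2 fold changes that changed sign were, for Figla, 0.61 and 0.12 in MUT against WT (same FPKM sum and quantile normalization), 0.47 in GcKO against WT (same sum), 0.15 and 0.036 in AmcKO against WT (same sum and quantile), 0.46 and 0.087 in MUT against AmcKO (same sum and quantile) and 0.32 in GcKO against AmcKO (same sum). Others were Taf4b in GcKO against WT (-0.0099, quantile), and with the same sum Foxo3 in GcKO against WT (0.53) and Taf4b and Pou5f1 in GcKO against AmcKO (0.44 and 0.26). The cause was not tested.

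When 1 replicate was left out, values that crossed 0 ran from -0.028 to 0.22 for Lhx8 in MUT against WT, from -0.23 to 0.11 for Foxo3 in GcKO against WT, from -0.41 to 0.071 for Figla and -0.070 to 0.30 for Lhx8 in AmcKO against WT, from -0.49 to 0.057 for Sall4 in GcKO against MUT, from -0.055 to 0.22 for Nobox and -0.17 to 0.20 for Lhx8 in MUT against AmcKO, and from -0.33 to 0.19 for Taf4b and -0.40 to 0.22 for Pou5f1 in GcKO against AmcKO.

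Numbers were shared by GcKO and MUT and by AmcKO and WT. Same-numbered libraries did not deviate together (correlations of -0.018, 0.041 and -0.041, and of 0.025, 0.015 and -0.032), so they share only a number. With a replicate block, 0 factors were called in GcKO against MUT and 0 in AmcKO against WT, where Sall4 had 1.35 with limma adjusted p = 0.188, and the calls among all genes went from 23 to 9 and from 24 to 9.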

Other observations

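Of 14 oocyte markers, 1 was called higher and 6 lower in MUT, and 1 higher and 5 lower in GcKO, with medians of -0.59 and -0.41 beside 0.12 for all genes, of which 20.8% and 20.2% were called. Among genes with a mean FPKM of at least 5, 13 markers were tested. Of these, 1 was called higher and 8 lower in MUT, and 1 higher and 5 lower in GcKO. Of all 4759 such genes, 760 were called higher and 1362 lower in MUT, and 705 and 1397 in GcKO, with medians of -0.12 and -0.16. The balance of the 14 was 4 higher and 3 lower in MUT and 8 higher and 3 lower in GcKO after scaling to the same FPKM sum, and 3 higher and 2 lower and 5 higher and 1 lower after quantile normalization. At the same FPKM sum 4641 of all 11233 genes were called higher and 253 lower in MUT, and 4769 and 241 in GcKO. With quantile normalization 753 of all genes were called higher and 720 lower in MUT, and 691 and 665 in GcKO. Of these markers 8 are also among the target genes of the factors, and of the other 6, 4 were called lower in both groups. Dppa3, which protects maternal DNA methylation after fertilization, fell by 1.73 in MUT and 1.52 in GcKO (limma adjusted p = 0.000106 and 0.000162), from 27932 ± 1971 FPKM in WT to 8421 ± 431 and 9872 ± 1966. Npm2, a histone chaperone gene, fell by 1.53 and 1.35 (adjusted p = 0.000124 and 0.000247), Ooep, of the subcortical maternal complex, by 1.42 and 1.34 (adjusted p = 0.000151 and 0.000226), and Dazl, an RNA-binding protein of germ cells, by 1.17 and 1.07 (adjusted p = 0.000419 and 0.000748). After quantile normalization these values in MUT were -0.22, -0.70, -0.21 and -0.40, of which that of Npm2 was called. After scaling to the same FPKM sum they were -0.73, -0.53, -0.42 and -0.17, of which those of Dppa3, Npm2 and Ooep were called. In GcKO the values after quantile normalization were -0.061, -0.40, -0.13 and -0.18, with Npm2 called. Scaling to the same FPKM sum gave -0.48, -0.31, -0.30 and -0.031 in GcKO, with Dppa3, Npm2 and Ooep called. In AmcKO against WT limma called 0 of 14, with 4 at an unadjusted p under 0.05 (0.214% and 15.6% of all genes).

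Of the 5 granulosa and cumulus cell markers tested, 1 was called higher and 0 lower in MUT, and 1 higher and 0 lower in GcKO, beside 20.8% and 20.2% of all genes, with medians of -0.024 and 0.61. After scaling to the same FPKM sum 2 and 3 were called higher and 0 lower, beside 4641 and 4769 of all 11233 genes higher. The summed level of all 19 had a median of 20.1 FPKM in WT, 18.7 in MUT and 17.4 in GcKO, and in the library where it was highest it made up 0.00203%, 0.00413% and 0.00422% of the FPKM sum. Cyp19a1 (aromatase), the most abundant of the 5 in WT, stood at -0.68 in MUT and -0.55 in GcKO (limma adjusted p = 0.185 and 0.285). Inha, the inhibin alpha subunit, was listed at 0 in WT 4 to 6 and stood at 5.44, 1.13 and 5.44 FPKM in MUT 1 to 3 (limma adjusted p = 0.00260). It was thus tested only through groups other than WT, and its call is that of a gene the filter chose. Gata4, a granulosa cell transcription factor, was 0, 1.70 and 0 FPKM in WT and 3.90, 2.88 and 2.24 in GcKO (limma adjusted p = 0.0158). That call was lost without WT 4, WT 6 or GcKO 1 (adjusted p up to 0.0756) and after quantile normalization (adjusted p = 0.0502).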
